A study of Homo sapiens with 6 samples.

Results

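The septin genes are 8 of the 28395 genes in the deposited table, chosen by their Entrez identifiers, in the ENTREZID column, because the symbol column of these rows holds dates in place of names. They are SEPTIN2 (ENTREZID.4735), SEPTIN3 (ENTREZID.55964), SEPTIN6 (ENTREZID.23157), SEPTIN7 (ENTREZID.989), SEPTIN8 (ENTREZID.23176), SEPTIN9 (ENTREZID.10801), SEPTIN10 (ENTREZID.151011) and SEPTIN11 (ENTREZID.55752), and all 8 had enough signal to be tested. They were measured in HCC827, an established human lung adenocarcinoma cell line with an activating deletion in EGFR, treated for 24 h with the vehicle DMSO or with 1 μM erlotinib, an inhibitor of the EGFR kinase. RNA was sequenced in 6 libraries, 3 per condition, which held 20760204 to 24641819 reads on genes. The erlotinib libraries are numbered 4, 5 and 6 in the table and the DMSO libraries 1, 2 and 3. The paper states that its experiments, apart from those in animals, were independently repeated 3 or more times, but it does not tie the libraries to these repeats. Nothing in the labels says that libraries of a condition came from separate cultures, so p-values measure the spread between these libraries, which may be technical.

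Septins are GTP-binding proteins that join into rod-shaped hetero-oligomers, and these join end to end into filaments, rings and gauzes. They are a scaffold at the cleavage furrow of dividing cells, a diffusion barrier at the base of the cilium, and partners of actin stress fibres and microtubules. The human genes form 4 subgroups, named for SEPTIN2, SEPTIN3, SEPTIN6 and SEPTIN7, and an octameric rod holds subunits of each, while a hexamer lacks the SEPTIN3 subgroup. SEPTIN7 is the only member of its subgroup, while members of the others can stand in for each other.

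With erlotinib, 5 of the 8 septin genes fell, 1 rose and 2 did not pass the test. SEPTIN11, SEPTIN9 and SEPTIN7 fell most, by 47.4%, 44.0% and 42.3% of their DMSO mean, SEPTIN10 fell by 22.6% and SEPTIN2, the most abundant, by 13.9%. SEPTIN6 was the gene that rose, by 38.2%, from a low level. The values are signal, which is reads divided by 1 size factor per library, and genes whose signal averaged 10 or more over the libraries were tested with limma on log2(signal + 1) at a Benjamini-Hochberg adjusted p-value under 0.05. The response to erlotinib was broad, since 35.4% of the 14215 tested genes were lower and 35.3% were higher by this rule, 70.7% in all, so that 5 of 8 lower and 1 of 8 higher has to be read against a large background. The median log2 fold change was -0.57 over the 8 septin genes and 0.02 over all tested genes. With a filter of at least 10 reads in every library, which SEPTIN3 did not meet, it was -0.37 over the 7 others and -0.04 over all genes. The libraries of the conditions did not overlap for 7 septin genes, 6 lower and 1 higher, against 36.9% lower, 36.7% higher and 73.6% in either direction of all tested genes. When each library was scaled to its total count instead, the median of all genes moved to 0.19 and 3 septin genes were lower, SEPTIN7, SEPTIN9 and SEPTIN11, against 27.8% lower and 43.3% higher of all tested genes. In RNA from a whole culture, fewer cells that express a gene and less RNA of it per cell cannot be told apart.

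**Figure D1:**
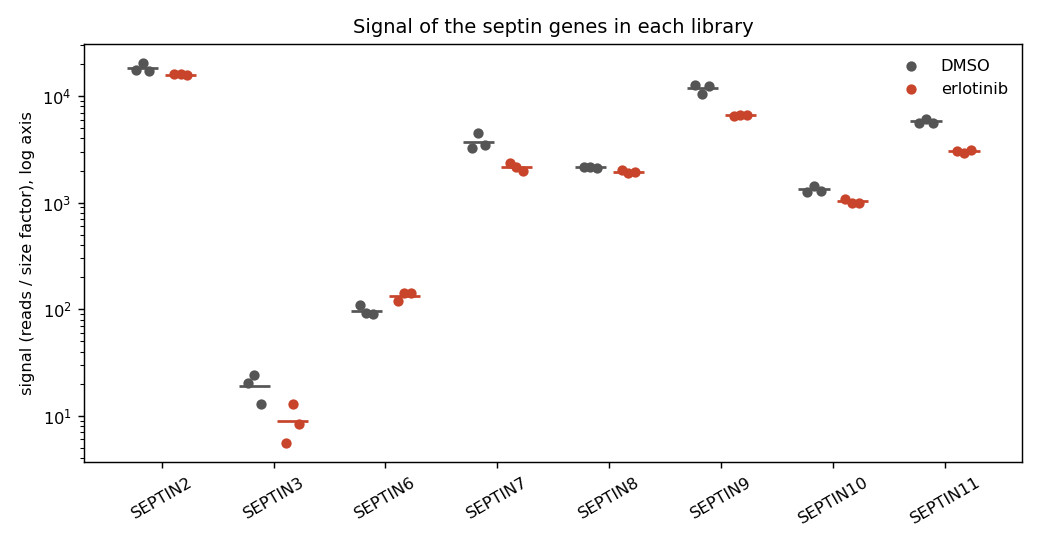
Signal of the 8 septin genes (reads divided by the size factor, log axis) in the 3 DMSO (grey) and 3 erlotinib (red) libraries, with a point per library and a line at the mean. The erlotinib points lie below all DMSO points for 6 genes, above them for SEPTIN6, and overlap them for SEPTIN3.

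DMSO library 2 stood apart from the other DMSO libraries before any comparison with erlotinib. Over all genes, the chi-square per degree of freedom was 24.3 between DMSO libraries 1 and 2 and 15.2 between 2 and 3, against 7.96 between 1 and 3 and 4.13 to 6.08 among the erlotinib libraries. Among the DMSO libraries it held the highest SEPTIN2, SEPTIN3, SEPTIN7, SEPTIN10 and SEPTIN11 and the lowest SEPTIN9. Without it, 5 septin genes were still lower, against 5080 lower and 5127 higher of 14276 tested genes. The change of SEPTIN6 no longer passed the test in that fit.

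SEPTIN2 was by far the most expressed member of its own subgroup in HCC827 cells, and it lies at chr2:241315355-241354027 on the plus strand of GRCh38. Its signal was 17648, 20434 and 17305 in the DMSO libraries and 15974, 15951 and 15751 with erlotinib. Every erlotinib library was below every DMSO library, but the gap between the groups was small beside the spread in DMSO. The mean went from 18462 ± 1716 to 15892 ± 123 (SD, n = 3 each). The log2 change was -0.21 with an SE of 0.07 (limma, adjusted p = 0.00878). Without DMSO library 2 it was -0.14 (adjusted p = 0.0114, limma), and with scaling to the total count it did not pass the test (-0.033, adjusted p = 0.674, limma). Of its main transcript, 39.9% aligns to 1 other place in the genome at 95.5% identity, so that its level may be affected by reads that were not uniquely mapped. A total of 318 bases at the gene's edge also belong to HDLBP, whose signal averaged 11002 with DMSO and 8559.8 under erlotinib.

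SEPTIN9, of the SEPTIN3 subgroup, is the subunit that extends a hexameric rod to an octamer, and its gene (chr17:77281499-77500596, plus strand) has 10 start sites in the RefSeq promoter table. It had a signal of 12747, 10432 and 12329 in DMSO and 6562, 6619.9 and 6692 with erlotinib. The erlotinib libraries agreed within a narrow band, far below the lowest DMSO library. The mean fell from 11836 ± 1234 to 6625 ± 65.1 (SD, n = 3 each). The log2 change was -0.83 with an SE of 0.07 (limma, adjusted p = 1.6e-09). SEPTIN3, its relative best known from neurons (chr22:41969443-41998221, plus strand), was nearly absent. It had 18, 26 and 12 reads in the DMSO libraries and 6, 13 and 9 with erlotinib, and the groups overlapped. Its log2 fold change of -1.04 did not pass the test (95% interval -2.15 to 0.07, adjusted p = 0.0875, limma), with 56 reads in DMSO and 28 with erlotinib in all. The mean signal of SEPTIN3 was 19.1 in DMSO and 8.94 with erlotinib, so it met the filter of 10 only through the DMSO libraries.

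SEPTIN7 (chr7:35800986-35915763, plus strand), which every rod needs, had a signal of 3261, 4523 and 3447 in DMSO and 2329, 2153 and 2001 with erlotinib. The conditions did not overlap, and DMSO library 2 was well above the other libraries. The mean fell from 3744 ± 681 to 2161 ± 164 (SD, n = 3 each). The log2 change was -0.78 with an SE of 0.10 (limma, adjusted p = 3.6e-07), and -0.64 without DMSO library 2. SEPTIN7 has many pseudogenes, and 13 other places on the chromosomes of GRCh38 align to at least 300 bases of its main transcript, at 87.1% to 96.0% identity, covering 96.8% of it together. Reads that fit such a copy equally well are not uniquely mapped, so the level of SEPTIN7 is uncertain. The largest pseudogene row, SEPTIN7P2 (listed as SEPT7P2), had a mean signal of only 74.9, and its log2 fold change of 0.35 did not pass the test (adjusted p = 0.219, limma).

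SEPTIN6, SEPTIN8, SEPTIN10 and SEPTIN11 form the SEPTIN6 subgroup, whose members take the same place in a rod, and their log2 changes ran from -0.93 to 0.46. SEPTIN11 (chr4:76949752-77040154, plus strand) had a signal of 5598, 6125 and 5618 in DMSO and 3061, 2943 and 3119.9 with erlotinib, with a wide gap between the groups. Its mean fell from 5780.3 ± 298 to 3041 ± 90.0 (SD, n = 3 each). The log2 change was -0.93 with an SE of 0.07 (limma, adjusted p = 8.4e-11). SEPTIN10 (chr2:109542799-109613966, minus strand) had a signal of 1258, 1439 and 1287 in DMSO and 1092, 999 and 993 with erlotinib. Its groups lay close together without overlap, and its log2 change was -0.37 with an SE of 0.08 (limma, adjusted p = 6.1e-04). With scaling to the total count it did not pass the test (-0.19, adjusted p = 0.0602, limma). Of its main transcript, 96.4% aligns to 1 other place in the genome at 96.6% identity, and RefSeq draws the span of RANBP2 (mean signal 5248 with DMSO and 3606 under erlotinib) across it, so that its level too is uncertain.

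SEPTIN8 (chr5:132750819-132780083, minus strand) had a signal of 2174, 2144 and 2112 in DMSO and 2025, 1917 and 1918 with erlotinib. The groups did not overlap, but the log2 fold change of -0.13 did not pass the test (95% interval -0.28 to 0.01, adjusted p = 0.093, limma), and it was 0.045 when each library was scaled to its total count. Relative to the median of all genes it was -0.15 in both, which follows because this scaling shifts all genes by nearly the same amount. SEPTIN6 (chrX:119615724-119693168, minus strand) was low, with a signal of 109, 91.9 and 89.9 in DMSO and 119, 141 and 142 with erlotinib. All erlotinib libraries were above all DMSO libraries, with erlotinib library 4 close to DMSO library 1. Its mean of 96.9 ± 10.4 became 134 ± 13.0 (SD, n = 3 each). The log2 change was 0.46 with an SE of 0.19 (limma, adjusted p = 0.0334). This call was weak, since the adjusted p-value lay between 0.00472 and 0.11 over the alternatives (limma, edgeR or DESeq2) and was above 0.05 with no filter on low signal (0.0632) and without DMSO library 2 (0.0604), DMSO library 3 (0.081), erlotinib library 5 (0.102) or erlotinib library 6 (0.11).

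**Figure D2:**
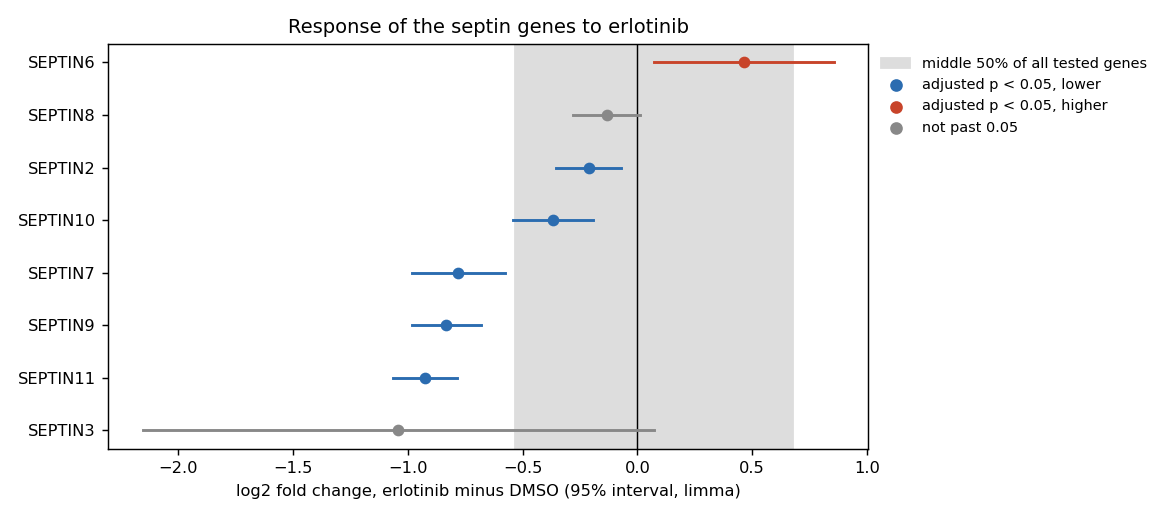
Log2 fold change of each septin gene, erlotinib minus DMSO, with its 95% interval (limma, 3 libraries per condition), and the middle 50% of all tested genes (-0.53 to 0.68) as a grey band. SEPTIN11, SEPTIN9 and SEPTIN7 lie below the band with short intervals, SEPTIN3 below it with a long one, and SEPTIN6 is the only septin above 0.

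SEPTIN6, SEPTIN10 and SEPTIN11 each have a single start site in the RefSeq promoter table, so the 250 bases before it are shown for these members of the same subgroup, whose log2 changes were -0.93 for SEPTIN11, -0.37 for SEPTIN10 and 0.46 for SEPTIN6. They are written 5′ to 3′ on the gene's strand from GRCh38.p14, at chrX:119693169-119693418 (minus), chr2:109613967-109614216 (minus) and chr4:76949502-76949751 (plus). Capitals mark matches, on either strand, to the GC box GGGCGG, the CCAAT box CCAAT, the ETS core CCGGAA, the AP-1 site TGANTCA, the E-box CACGTG and the cell cycle element TTTGAA, and no match overlaps another.
SEPTIN6: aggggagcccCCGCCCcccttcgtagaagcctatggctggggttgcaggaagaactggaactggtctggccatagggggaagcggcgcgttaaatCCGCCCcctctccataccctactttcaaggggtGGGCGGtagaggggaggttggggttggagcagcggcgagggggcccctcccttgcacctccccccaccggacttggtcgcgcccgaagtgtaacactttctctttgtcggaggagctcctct
SEPTIN10: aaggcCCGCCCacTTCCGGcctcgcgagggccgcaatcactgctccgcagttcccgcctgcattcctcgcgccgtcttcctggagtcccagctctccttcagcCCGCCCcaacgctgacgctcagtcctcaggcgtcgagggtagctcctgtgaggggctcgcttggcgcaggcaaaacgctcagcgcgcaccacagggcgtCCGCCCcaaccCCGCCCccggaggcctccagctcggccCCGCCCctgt
SEPTIN11: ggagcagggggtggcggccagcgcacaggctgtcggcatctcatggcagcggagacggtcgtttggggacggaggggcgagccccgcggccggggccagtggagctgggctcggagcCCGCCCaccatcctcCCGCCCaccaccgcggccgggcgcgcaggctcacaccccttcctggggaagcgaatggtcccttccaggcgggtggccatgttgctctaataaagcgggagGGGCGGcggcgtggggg
The GC box, which Sp-family factors bind, was found 3 times in SEPTIN6, 5 times in SEPTIN10 and 3 times in SEPTIN11, and it occurs in 42.6% of the 35116 promoters in the table. SEPTIN10 also held 1 ETS core, which occurs in 14.5% of them. The CCAAT box (32.0% of promoters), the AP-1 site (6.57%), the E-box (6.34%) and the cell cycle element (13.3%) were found in none of these 3 windows. CpG pairs numbered 14 in SEPTIN6, 26 in SEPTIN10 and 25 in SEPTIN11, against a median of 11. Of the 8 septin genes, 7 have a promoter in the table. SEPTIN3 is not among them.

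Levels of different septins were compared as signal per kilobase of their main GENCODE transcript, and the order of SEPTIN7, SEPTIN8, SEPTIN10 and SEPTIN11 depended on that choice of length. Levels and shares of different genes are also uncertain because the aligner did not split reads across introns. The copies of SEPTIN7 and SEPTIN10 elsewhere in the genome add to this. By this length the order in DMSO was SEPTIN2 (5679 ± 528 per kb), SEPTIN9 (3171 ± 331), SEPTIN11 (1042 ± 53.8), SEPTIN7 (874 ± 159), SEPTIN8 (779 ± 11.2), SEPTIN10 (441 ± 32.4), SEPTIN6 (21.6 ± 2.32) and SEPTIN3 (4.69 ± 1.41; SD, n = 3 each). The libraries of SEPTIN11 and SEPTIN7 overlapped, as did those of SEPTIN7 and SEPTIN8, and the other neighbours were apart by this length. With erlotinib, SEPTIN8 (709.95 ± 22.5 per kb) stood behind only SEPTIN2 and SEPTIN9, ahead of SEPTIN11 (548 ± 16.2) and SEPTIN7 (504 ± 38.3), whose libraries again overlapped. SEPTIN11 was at 1.34 ± 0.0714 times SEPTIN8 per kb in DMSO, and with erlotinib it was at 0.773 ± 0.0301 times SEPTIN8 (SD, n = 3 each). The libraries did not overlap in this ratio (exact permutation test, two-sided, p = 0.1, the smallest it can give). By the other lengths SEPTIN11 stayed above SEPTIN8 with erlotinib, at 12.1% against 6.65% of the summed septin signal by coding length and 8.70% against 7.05% with all exons merged. SEPTIN7 was above SEPTIN8 by coding length, at 10.3% against 5.23% in DMSO and 8.35% against 6.65% with erlotinib. With all exons merged, SEPTIN10 (6.53%) was above SEPTIN8 (5.82%) and SEPTIN7 (4.55%) in DMSO. The ratio of SEPTIN9 to SEPTIN7 was 4.49, 2.65 and 4.10 in DMSO and 3.23, 3.53 and 3.84 with erlotinib, and the groups overlapped (exact permutation test, two-sided, p = 0.8).

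Summed over the 8 genes, the septin signal per kb was 11851, 12524 and 11661 in DMSO and 8893, 8776 and 8728 with erlotinib, 26.7% lower in the mean. SEPTIN2 made up 47.2% ± 2.58 of it without the drug and 55.6% ± 0.332 with it (SD, n = 3 each). A larger share was not a rise, since SEPTIN2 went from 5679 to 4888 per kb and SEPTIN8 from 779 to 710. SEPTIN9 made up 26.5% ± 3.62 and 20.2% ± 0.388, SEPTIN11 8.68% ± 0.151 and 6.23% ± 0.201, and SEPTIN7 7.25% ± 1.05 and 5.73% ± 0.381. SEPTIN8 made up 6.49% ± 0.235 and 8.07% ± 0.182, the higher share being in every erlotinib library, and SEPTIN10 made up 3.67% ± 0.146 and 3.87% ± 0.171. The 4 genes of the SEPTIN6 subgroup together made up 19.0% ± 0.0955 of the signal in DMSO and 18.5% ± 0.370 with erlotinib, with no overlap between the libraries (exact permutation test, two-sided, p = 0.1). By coding length this went from 25.1% to 22.7% and with all exons merged from 25.1% to 23.1%. The libraries of the conditions did not overlap for the shares of SEPTIN2, SEPTIN6, SEPTIN7, SEPTIN8, SEPTIN9 and SEPTIN11. Each had an exact permutation p of 0.1 (two-sided, 0.133 adjusted over the 8 genes), the smallest that 3 against 3 libraries can give. Shares within a library add to a fixed total, so these are not separate results. The signal of 73.6% of all tested genes did not overlap between the conditions either. Without DMSO library 2 the difference in the share of SEPTIN7 was -0.93 percentage points in place of -1.52, and without erlotinib library 4 that of SEPTIN10 was 0.11 in place of 0.21. The shares depend on the length used, and with coding length SEPTIN11 made up 16.5% in DMSO and 12.1% with erlotinib.

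**Figure D3:**
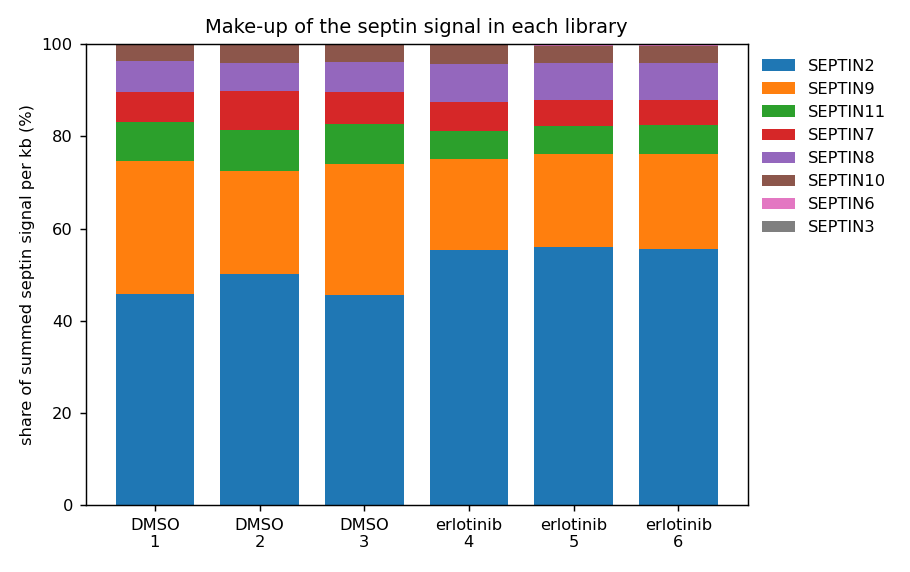
Share of each septin gene in the summed septin signal per kb (%), 1 bar per library. The SEPTIN2 segment grows from 45.6% to 50.2% in the DMSO libraries to 55.3% to 55.9% with erlotinib, while the SEPTIN9 and SEPTIN11 segments shrink. The signal of SEPTIN2 itself was lower with erlotinib.

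The 5 remaining septin genes of the family, SEPTIN1, SEPTIN4, SEPTIN5, SEPTIN12 and SEPTIN14, had too little signal to be tested. SEPTIN14 had no reads in any library, and SEPTIN4, SEPTIN5 and SEPTIN12 had at most 3 reads in each. SEPTIN5 shares 6100 bases with another row, SEPT5-GP1BB, so its few reads do not show that it was silent. SEPTIN1, a relative of SEPTIN2 known from blood cells, had 0, 1 and 1 reads in the DMSO libraries and 18, 15 and 10 with erlotinib. Corrected for the size factors, that is 19.7 times as many reads with erlotinib (95% interval 5.12 to 168, exact binomial, covering counting error only). The ratio rests on 2 reads in DMSO against 43 with erlotinib. The SEPTIN1 gene (chr16:30378135-30382815, minus strand) shares 4504 bases with ZNF48, whose signal averaged 648 with DMSO and 621 under erlotinib. The strand that was counted is not given in the sources used here, so reads of overlapping genes cannot be told apart.

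The partners of septins in cell division were compared from lists of genes. Cdc42 is a small GTPase whose Borg effectors bind septin filaments, and the 5 tested genes of this list, CDC42 and the Borg genes CDC42EP1, CDC42EP2, CDC42EP3 and CDC42EP4, were all lower with erlotinib, against 35.4% of all tested genes, with a median log2 fold change of -0.50 against 0.02. CDC42EP1 fell most, from 3983, 3115 and 4188 in DMSO to 1639, 1654 and 1578 with erlotinib (log2 change -1.20, SE 0.09, adjusted p = 1.7e-10, limma), with no overlap between the groups. CDC42EP3 fell least (-0.24, adjusted p = 0.00325, limma), and no longer passed with scaling to the total count (-0.06, adjusted p = 0.428, limma). CDC42EP5 had no reads.

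Of the 15 genes of the contractile ring, 10 were lower, 3 higher and 2 neither, against 35.4% lower and 35.3% higher of all tested genes. With scaling to the total count 7 were lower and 4 higher, against 3955 lower and 6156 higher of the 14215 tested genes. Their median log2 change was -0.31. ANLN, the anillin that links septins to actin and myosin at the furrow, fell most, from 12355, 13341 and 11899 in DMSO to 1509, 1583 and 1381 with erlotinib (log2 change -3.07, SE 0.07, adjusted p = 3.4e-18, limma). It was far below every DMSO library, and its fall was larger than that of any septin gene. ECT2, the exchange factor that activates RhoA at the furrow (-2.33), DIAPH3, a formin that nucleates actin (-2.08), and the kinase CIT (-0.85) also fell, the largest of the 3 adjusted p-values being 7.7e-09 (limma). The non-muscle myosin heavy chain genes MYH9 (-0.26, adjusted p = 0.00269) and MYH10 (-0.57, adjusted p = 4.4e-07, limma) fell, MYH9 not past the threshold with scaling to the total count (adjusted p = 0.293, limma), while their relative MYH14 rose from 804 ± 200 to 3181 ± 71.6 (SD, n = 3 each; log2 fold change 2.01, adjusted p = 6.2e-12, limma). The light chain genes MYL9 (0.52) and MYL6 (0.17) also rose, MYL6 only weakly, with adjusted p-values up to 0.146 when 1 library was left out (limma). MYL12B, another light chain gene, fell (-0.29, adjusted p = 7.0e-04, limma), though not with scaling to the total count (-0.11, adjusted p = 0.154, limma). MYL12A (0.17) did not pass the test, but it did with scaling to the total count (0.35, adjusted p = 9.4e-04, limma), without DMSO library 2 (adjusted p = 0.0012, limma), by edgeR (adjusted p = 0.043) and by limma-voom (adjusted p = 0.040). ROCK1 (-0.16, and 0.022 with scaling to the total count) did not pass either, except without DMSO library 2 (adjusted p = 0.038, limma).

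The genes of the central spindle and midbody, which act at the last step of division, were lower in 10 of 11 cases, against 35.4% of all tested genes, with a median log2 fold change of -2.29. AURKB, the kinase of the chromosomal passenger complex, fell most (-3.33, adjusted p = 9.6e-17, limma), followed by KIF14 and KIF23, motors of the midbody (both -2.80). The exception was CHMP4B, a subunit of the ESCRT-III filament that also acts at endosomes, with a log2 fold change of 0.44 (adjusted p = 4.4e-06, limma). The fall of the division genes and the fall of the septin genes were seen in the same libraries, and the part of one in the other was not tested.

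**Figure D4:**
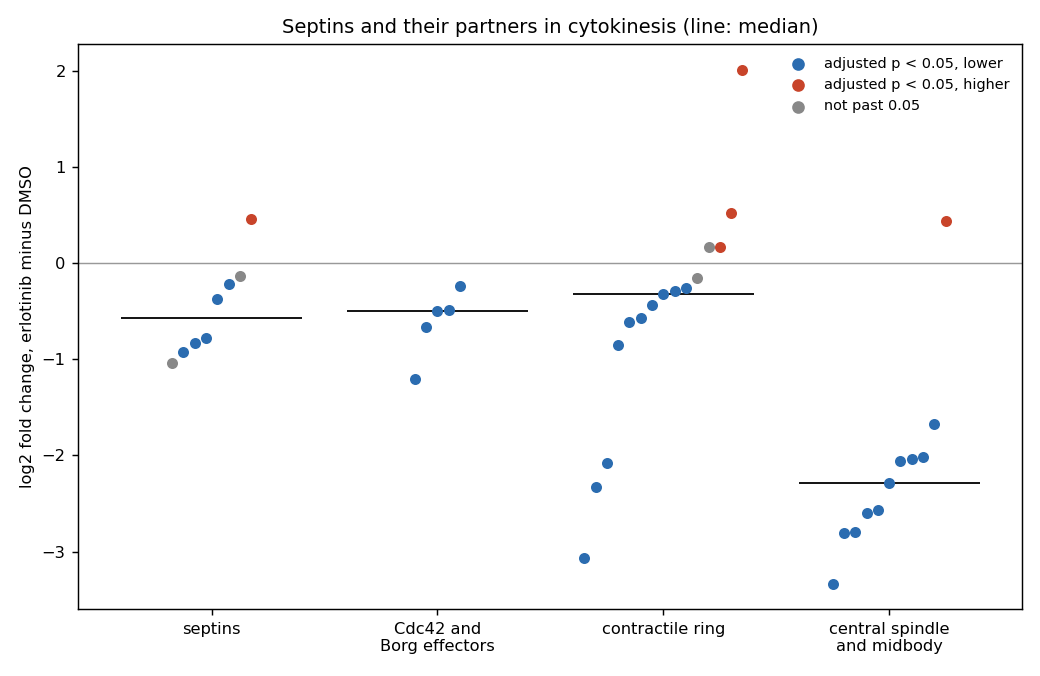
Log2 fold change, erlotinib minus DMSO, of the tested septin genes, Cdc42 and its Borg effectors, contractile ring genes, and central spindle and midbody genes, 1 point per gene coloured by the limma call, with a line at each median (-0.57, -0.50, -0.31 and -2.29). The septins lie between -1.04 (SEPTIN3, which did not pass the test) and 0.46, and most central spindle genes lie below -2. SEPTIN3 met the filter only through the DMSO libraries. With at least 10 reads required in every library, the septin median was -0.37 over the 7 others.

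The cell line was checked against markers of lung epithelium. All 8 were well expressed in both conditions, and 5 were lower and 1 higher with erlotinib, against 35.4% lower and 35.3% higher of all tested genes. The mean signal of the adhesion gene EPCAM was 9852 in DMSO and 9485 with erlotinib and that of CDH1 27824 and 30609, and neither passed the test, although CDH1 did under 6 alternatives. The keratin genes fell, KRT7 from 123686 to 79897, KRT8 from 45622 to 25636, KRT18 from 18755 to 7876 and KRT19 from 47069.6 to 35767. EGFR fell from 79645 to 45538, and NKX2-1, a lung lineage transcription factor, rose from 3002 to 8644 (largest adjusted p of these 6 genes 3.3e-04, limma). Their part in the changes of the septin genes was not tested. Fibroblast markers summed to a signal of 73.7, 75.2 and 109 in DMSO and 260, 223 and 215 with erlotinib, nearly all of it COL1A1, while COL1A2, COL3A1 and DCN had at most 3 reads in every library. LUM, too low to test, had 2, 4 and 6 reads in DMSO and 10, 10 and 20 with erlotinib. The libraries of PDGFRB, also too low to test, overlapped. Endothelial markers summed to 34.0, 15.8 and 24.6 in DMSO and 58.1, 46.5 and 48.7 with erlotinib, with VWF the most abundant over the 6 libraries. Leukocyte markers summed to 2787, 2795 and 3172 in DMSO and 3241, 3538 and 3473 with erlotinib, nearly all of it the lysosomal gene CD68, with PTPRC at a mean signal of 3.27. Of these 17 markers of other cell types, 4 were tested. COL1A1, CD68 and VWF were higher with erlotinib, against 35.3% of all tested genes, and PECAM1 was neither (adjusted p = 0.348, limma). CD68 was not past the threshold without erlotinib library 5 (adjusted p = 0.051, limma). VWF had 3, 1 and 7 reads in DMSO and 38, 26 and 23 with erlotinib, so it met the filter only through the erlotinib libraries. The part of these markers in the changes of the septin genes was not tested either.

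The genes most like a septin gene in pattern were found by the Euclidean distance of their centred log2 values over the 6 libraries. Nearest to SEPTIN6, which had the largest rise of the tested septins, were CLN3 (distance 0.115), RRAGB (0.120) and UNC119 (0.129). Nearest to SEPTIN3, whose log2 fold change was the lowest although it did not pass the test, were AIM2 (0.482), LOC646903 (0.528) and GJA3 (0.541). These genes were low too, at a mean signal of 12.3, 16.0 and 55.0, and SEPTIN3 had only 84 reads in all. For SEPTIN11, the septin with the largest fall that passed the test and added here after its values were seen, they were PTPN14 (0.0499), DHX33 (0.0624) and DHX15 (0.0692).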

How the data were processed

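Paired-end reads were mapped by the authors to GRCh38 with Bowtie2 2.3.4, an aligner that does not split reads across introns, and uniquely mapped reads were counted per gene with featureCounts 1.6.3. The strand counted is not given in the sources used here. The deposited signal values were read as counts that the authors had scaled by a size factor of each library (0.882 to 1.08), since within a library 100% of values were whole multiples of 1 step, within 0.01. Total reads per library were 20760204 to 24641819, which limits precision for genes such as SEPTIN3.

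Septin rows were found by Entrez identifier. All 6 libraries were fitted with limma 3.58.1 (R 4.3.3) on log2(signal + 1) with a variance trend, and a gene was tested if its signal averaged 10 or more (14215 genes). Tests were two-sided with Benjamini-Hochberg adjustment over all of them and a threshold of 0.05. Shares were compared with exact permutation tests. Alternatives used edgeR 4.0.16 and DESeq2 1.42.0 on recovered reads, limma-voom, other scalings, pseudocounts and filters, and each library left out. Scripts were tested on simulated data. Copies were sought with minimap2 2.31-r1302 and GENCODE transcripts, and positions and promoters came from RefSeq. Figures were drawn with matplotlib 3.10.9.

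The named genes are the 8 septins, the rest of the family and its pseudogenes, and genes of the listed partners and markers. Others are genes that overlap a septin gene and the rows SEPT5-GP1BB and SEPT7-AS1. Also named are the 3 nearest profiles of the tested septins with the largest rise and fall. The members and lists were chosen with earlier results of these data known. Of the genes in the lists, those described are the extremes and those that decide a list. The length used for levels is that of the exons of the GENCODE representative transcript.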

Additional observations from a re-analysis of the deposited data

How the results depend on the processing

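Of 119 values of single septin genes over 15 alternatives, 110 kept their direction and their side of the threshold. SEPTIN11, SEPTIN9 and SEPTIN7 did so throughout, with log2 fold changes of -0.95 to -0.75, -0.92 to -0.65 and -0.87 to -0.60. Scaling by total counts moved the median log2 fold change of all genes from 0.02 to 0.19 and left 3 septin genes lower in place of 5, since SEPTIN2 (-0.033, adjusted p = 0.674) and SEPTIN10 (-0.19, adjusted p = 0.0602, limma) no longer passed, and SEPTIN8 reversed to 0.045. Relative to the median gene none of the 8 septin genes changed direction, and SEPTIN2 lay at -0.23, SEPTIN8 at -0.15 and SEPTIN10 at -0.38 under both scalings. This follows from the scaling, which shifts all genes by nearly the same amount, so it is not a separate check of these changes. The number of septin genes higher was 0 in place of 1 with no filter on low signal and at a threshold of 0.01 (limma), against 1 at an unadjusted p under 0.05 in both and 1 by edgeR, DESeq2 and limma-voom. Leaving out 1 library at a time gave 0 to 1 septin genes higher and 5 to 5 lower. The same fits gave 4559 to 5127 higher and 4721 to 5080 lower over all genes. Without erlotinib library 5 or 6 or DMSO library 3, SEPTIN6 also missed an unadjusted 0.05. Over all genes, 3955 to 5080 were lower and 4323 to 6156 higher.

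With coding length, the difference in share was 0.269 percentage points for SEPTIN6 and -4.35 for SEPTIN11. With all exons of each gene merged, a length chosen after seeing the data, it was 0.272 for SEPTIN6, 1.23 for SEPTIN8 and -3.71 for SEPTIN11, against 0.159, 1.58 and -2.44 reported. These differences follow from the lengths themselves. No paired analysis was possible because the columns of the erlotinib libraries carry none of the replicate numbers in the labels. Reads without molecular identifiers are not independent molecules, and SEPTIN3 rests on 84 reads in all.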

Other observations

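A transcript that runs from SEPTIN5 into its neighbour GP1BB has a row of its own in the table, SEPT5-GP1BB. It had 0 reads in each DMSO library and 19 reads in the erlotinib libraries together, while SEPTIN5 itself had 2 reads in each condition. The 2 rows share 6100 bases, and how reads in shared bases were assigned is not given in the sources used here. The row SEPT7-AS1, by its name an antisense RNA of SEPTIN7, held 16 reads in DMSO and 33 with erlotinib, and its libraries overlapped. These rows were picked after their values were seen and were too low to test.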
